A study of Mus musculus with 8 samples.

Results

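The libraries labelled LPS_IFNg_TubB were compared with the libraries labelled TubB, pairing replicate 1 with replicate 1 and replicate 2 with replicate 2. These were 4 of the 8 libraries of the series, taken by their labels, and all held poly(A)-selected RNA from RAW264.7, an established macrophage-like cell line from a mouse tumour induced by a virus. By its label, LPS_IFNg_TubB received lipopolysaccharide (LPS, a bacterial cell wall component) at 10 ng/ml, interferon-gamma (IFN-γ) at 20 ng/ml and Tubuloside B, a phenylethanoid glycoside, with a treatment time of 24 h. TubB is labelled as Tubuloside B alone, with no time stated. Both labels thus name the compound, at a dose that the sources used here do not state. The other 4 libraries, LPS_IFNg (the stimulus at the same doses for 24 h) and mock (the solvent DMSO, no time stated), entered the model only to add information on the spread within a pair and as the comparison without the compound. The labels say neither whether replicates were separate cultures nor what a shared replicate number stands for, so a p-value here measures spread between libraries that may be technical.

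LPS acts on macrophages through Toll-like receptor 4, which releases NF-κB and interferon regulatory factors, and IFN-γ acts through its receptor and JAK kinases. Together they are known to raise inducible nitric oxide synthase, cytokines, chemokines, guanylate-binding GTPases and antigen presentation genes. As labelled, the comparison asks how much this stimulus changed cells that had received the compound in both arms.

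The activation markers did not separate these groups in the way the labels would place them. Nos2 (inducible nitric oxide synthase) had 7429 and 6156 CPM (counts scaled by library size) in the libraries labelled LPS_IFNg_TubB, against 6964 and 5762 CPM in those labelled TubB. The libraries of the groups overlapped, and in both groups replicate 1 was the higher. Ptgs2 (cyclooxygenase 2) had 2048 and 1464 CPM in LPS_IFNg_TubB, against 2205 and 1357 CPM in TubB, again with replicate 1 the higher. Nos2 had only 199 and 166.1 CPM in the libraries labelled LPS_IFNg and 176 and 155.3 CPM in those labelled mock, and Ptgs2 lay between 43.1 and 44.9 CPM in these 4. Both groups compared here were thus high in activation markers although only the first is labelled as stimulated. Whether the labels TubB and LPS_IFNg were exchanged cannot be told from the sources used here. If they were, the comparison would set the stimulus with the compound against the stimulus alone. Samples keep their labels, every direction below refers to libraries by their labels, and a stimulus effect means only the difference between a label with the stimulus and its counterpart without it. Of the macrophage markers, Cd68 had 903 and 959 CPM in LPS_IFNg_TubB and 899 and 936 CPM in TubB, and Lyz2 had 4801 and 4644 CPM in LPS_IFNg_TubB and 4690 and 4384 CPM in TubB. Adgre1 had 100.3 and 87.7 CPM in LPS_IFNg_TubB and 85.4 and 77.3 CPM in TubB, higher in both pairs but not called (edgeR adjusted p = 0.992). Csf1r had 179 and 215 CPM in LPS_IFNg_TubB and 184 and 216 CPM in TubB. Itgam had 346 and 354 CPM in LPS_IFNg_TubB and 349 and 327 CPM in TubB. Of 10 T and B cell markers 9 had no count in these 4 libraries, with 0 and 1 counts in all in LPS_IFNg_TubB and 0 and 2 in TubB. Of 12 fibroblast, epithelial and endothelial markers 6 were at 0, with summed counts of 6 and 6 in LPS_IFNg_TubB and 5 and 15 in TubB. Neutrophil markers, 5 of 10 at 0, summed to 46.8 and 43.8 CPM in LPS_IFNg_TubB and 57.1 and 38.3 CPM in TubB, and dendritic cell markers, 3 of 8 at 0, to 46.8 and 43.8 CPM in LPS_IFNg_TubB and 54.5 and 40.5 CPM in TubB, so both lists were lower in pair 1 and higher in pair 2. S100a8 gave most of the neutrophil marker counts (886 over these 4 libraries), and Itgax most of the dendritic cell marker counts (734). Mast cell and basophil markers, 5 of 7 at 0, summed to 11.5 and 12.9 CPM in LPS_IFNg_TubB and 10.3 and 11.6 CPM in TubB.

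Library totals ran from 4767894 counts (LPS_IFNg_TubB replicate 1) to 8413834 (TubB replicate 2). The count table held 42454 genes, of which 11081 were tested. Between libraries with the same replicate number the mean chi-square per gene, which is 1 for sampling noise alone, was 1.94 in pair 1 and 2.33 in pair 2. It was higher, 3.25, between the replicates of LPS_IFNg_TubB and 4.78 between those of TubB. Against any library labelled LPS_IFNg or mock it lay between 67.3 and 89. The paired libraries across the label were thus closer to each other than replicates within a label.

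With the pairs modelled, 5 of the 11081 genes passed the test (0.0451%), 3 higher (0.0271%) and 2 lower (0.018%) in LPS_IFNg_TubB. The test was edgeR's quasi-likelihood test with a Benjamini-Hochberg adjusted p under 0.05, called here. The genes higher were Sap30, Bc1 and Cebpb, and the genes lower were AY036118 and Fkbp4. At an unadjusted p under 0.05 the same test gave 525 genes (4.74%), 235 higher and 290 lower. Without the pairing, edgeR called 0 genes, with 269 at an unadjusted p under 0.05 (2.43%), so each call below rests on taking same-numbered libraries as pairs. DESeq2 with the pairing called 0 genes, with 27 at an unadjusted p under 0.05. In RNA from whole cultures, a change in the level per cell and a change in the share of cells with that level cannot be told apart.

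Sap30 encodes a subunit of the Sin3 histone deacetylase complex, a corepressor of transcription, and lies on chromosome 8 from 57482702 to 57487860 (minus strand, GRCm38.p6). It had 92.3 and 94.3 CPM in LPS_IFNg_TubB, against 71.6 and 63.6 CPM in TubB. Both libraries labelled LPS_IFNg_TubB were above both labelled TubB. The log2 fold change was 0.48 ± 0.10 (model SE, 2 pairs, 95% interval 0.29 to 0.67, edgeR adjusted p = 0.00287), with 0.37 in pair 1 and 0.57 in pair 2. Here and below, ± gives the SE of the model over all 8 libraries, with a spread shared across genes. Without pair 2 the difference was 0.36 to 0.37 and was no longer called. In the libraries without the compound label, LPS_IFNg minus mock was -0.13 ± 0.10, and the difference between these stimulus effects, 0.61, did not pass the test (edgeR adjusted p = 0.0656).

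Bc1, a short non-coding RNA made by RNA polymerase III that represses translation in rodent neurons, lies on chromosome 7 from 144914470 to 144914623 (plus strand). It had 141 and 155 CPM in LPS_IFNg_TubB, against 106.3 and 118.2 CPM in TubB, with no overlap. The log2 fold change was 0.40 ± 0.08 (95% interval 0.24 to 0.55; edgeR adjusted p = 0.00207), with 0.41 in pair 1 and 0.39 in pair 2. These were the most alike pair values among the 5 called genes. With either pair alone Bc1 was not called. A pseudogene copy of Bc1 exists in the assembly, and reads shared with such copies can be lost in counting, so its level is uncertain.

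Cebpb encodes C/EBPβ, a transcription factor of inflammatory gene expression in macrophages, and lies on chromosome 2 from 167688915 to 167690432 (plus strand). It had 166.4 and 213.8 CPM in LPS_IFNg_TubB, against 166.2 and 143.9 CPM in TubB. The first pair was level and the second was not. The log2 fold change over both pairs was 0.32 ± 0.07 (95% interval 0.18 to 0.46; edgeR adjusted p = 0.0265), made of 0.002 in pair 1 and 0.57 in pair 2. The interval holds neither pair value, since its width comes from a spread shared across genes more than from the pairs of this gene. The difference between the pairs passed its own test (0.57 on the log2 scale, edgeR adjusted p = 0.036). That test sets single libraries against each other, with 1 residual degree of freedom from the libraries labelled LPS_IFNg and mock, and assumes that these 4 vary like them. Without TubB replicate 2 the value was -0.002, and without LPS_IFNg_TubB replicate 2 it was 0.002, neither called. Cebpd, another C/EBP family member, which was named after its values were seen, had 93.4 and 124.7 CPM in LPS_IFNg_TubB and 83.9 and 98.6 CPM in TubB (0.26 ± 0.09, edgeR adjusted p = 0.861).

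AY036118, a long non-coding RNA on chromosome 17 from 39848112 to 39898385 (minus strand), had 234.6 and 180.1 CPM in LPS_IFNg_TubB, against 318.2 and 229.2 CPM in TubB. The groups overlapped, because LPS_IFNg_TubB replicate 1 stood above TubB replicate 2, but each pair had the lower value in LPS_IFNg_TubB. The log2 fold change was -0.39 ± 0.06 (95% interval -0.51 to -0.27; edgeR adjusted p = 1.49e-06), with -0.44 in pair 1 and -0.35 in pair 2. It was called with either pair alone. Without the pairing its interval ran from -1.10 to 0.30. LPS_IFNg minus mock was 0.23 ± 0.06 for this gene (not called, edgeR adjusted p = 0.527), with 0.08 in pair 1 and 0.40 in pair 2. The stimulus effects with and without the compound label differed by the test for AY036118 only, of 11081 genes (0.00902%). In that test 4.87% of genes had an unadjusted p under 0.05. The difference for AY036118 was -0.63 ± 0.09 (edgeR adjusted p = 2.77e-09). That difference was -0.47 and no longer called without mock replicate 2 or without LPS_IFNg replicate 2 (edgeR adjusted p = 0.132 and 0.146). Lars2 (mitochondrial leucyl-tRNA synthetase), which was named after its values were seen, had 548 and 452 CPM in LPS_IFNg_TubB and 674 and 518 CPM in TubB (-0.25 ± 0.06, edgeR adjusted p = 0.284). The mitochondrial ribosomal RNA mt-Rnr1 differed by -0.03 ± 0.05 and mt-Rnr2 by -0.09 ± 0.05. Other non-coding RNAs looked at with them had values above 0, each smaller than its SE. These were Mir6236 (0.091 ± 0.184), Rn7sk (0.055 ± 0.372) and Rmrp (0.187 ± 0.544), all named after their values were seen. What part ribosomal or mitochondrial RNA content has in the value of AY036118 was not tested.

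Fkbp4 encodes FKBP52, a co-chaperone of HSP90 for steroid hormone receptors, and lies on chromosome 6 from 128430103 to 128438656 (minus strand). It had 115.9 and 137.8 CPM in LPS_IFNg_TubB, against 147.6 and 164.8 CPM in TubB, with no overlap. The log2 fold change was -0.30 ± 0.07 (95% interval -0.43 to -0.16; edgeR adjusted p = 0.0324), with -0.35 in pair 1 and -0.26 in pair 2. The call was lost when any library, including those labelled mock or LPS_IFNg, was left out. Over all genes tested, 2974 (26.8%) had groups that did not overlap, so the lack of overlap in Sap30, Bc1 and Fkbp4 is no result by itself.

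**Figure D1:**
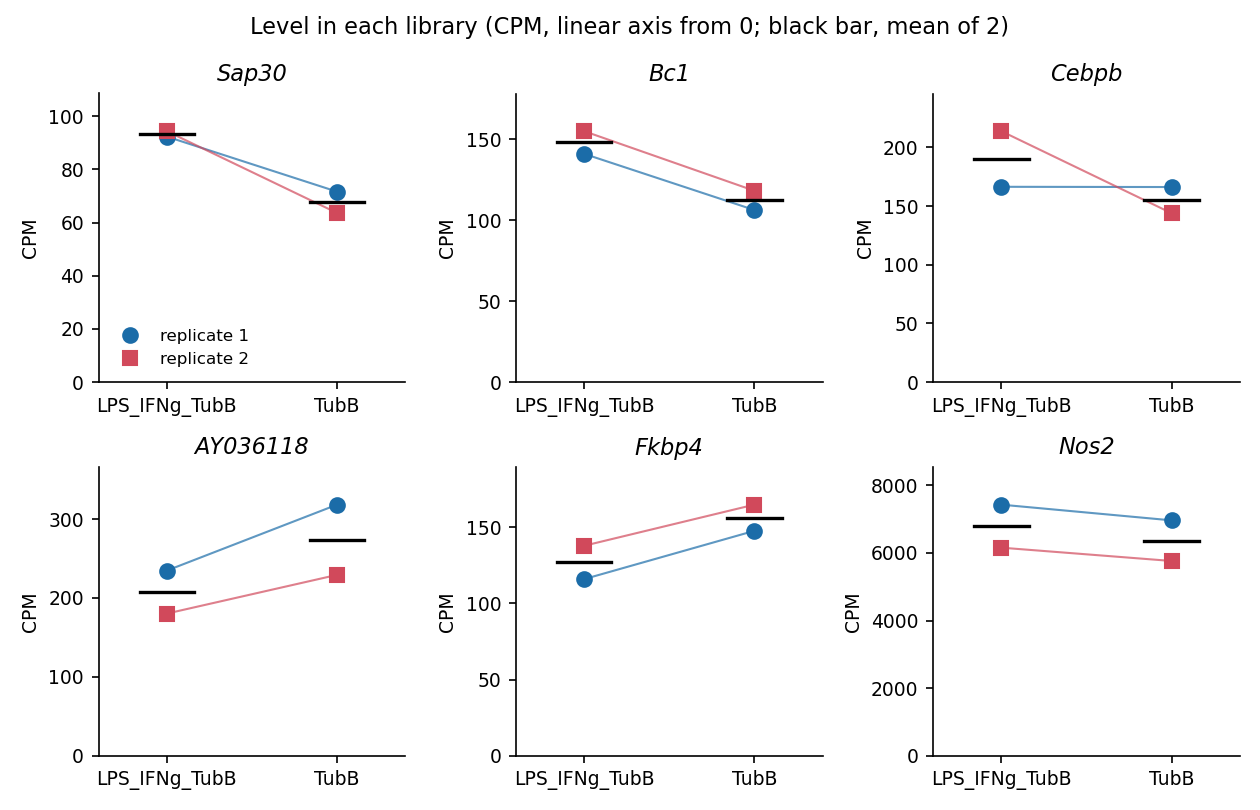
Level in each of the 4 libraries in CPM (linear axis from 0) for the 5 called genes and Nos2, with LPS_IFNg_TubB left of TubB. Blue circles are replicate 1, red squares replicate 2, lines join a pair and black bars are means of 2 libraries. In Cebpb the replicate 1 line is flat (166.4 and 166.2 CPM) and the replicate 2 line is not (213.8 and 143.9 CPM), and AY036118 shows a replicate difference as large as the difference within pairs.

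The proximal promoters of the 3 called protein-coding genes are shown, since Sap30 and Cebpb were both higher and Fkbp4 was lower. Each is the 250 bases before the RefSeq transcription start on the strand of the gene, from RefSeq on GRCm38.p6, at chr8:57487861-57488110 (minus strand), chr2:167688665-167688914 (plus strand) and chr6:128438657-128438906 (minus strand). Capitals mark the GC box GGGCGG and the CCAAT box, each searched on both strands, where CCGCCC is the GC box on the opposite strand.
Sap30: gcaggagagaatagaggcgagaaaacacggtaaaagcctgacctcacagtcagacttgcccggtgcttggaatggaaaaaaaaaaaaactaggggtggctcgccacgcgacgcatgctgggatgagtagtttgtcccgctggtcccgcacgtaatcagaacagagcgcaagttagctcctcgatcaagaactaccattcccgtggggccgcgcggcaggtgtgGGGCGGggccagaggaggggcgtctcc
Cebpb: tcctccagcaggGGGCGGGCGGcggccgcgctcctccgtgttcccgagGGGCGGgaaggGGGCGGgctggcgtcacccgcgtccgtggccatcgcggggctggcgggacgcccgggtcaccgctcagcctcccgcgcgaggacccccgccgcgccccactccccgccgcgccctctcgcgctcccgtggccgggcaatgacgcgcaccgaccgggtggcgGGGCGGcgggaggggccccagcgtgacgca
Fkbp4: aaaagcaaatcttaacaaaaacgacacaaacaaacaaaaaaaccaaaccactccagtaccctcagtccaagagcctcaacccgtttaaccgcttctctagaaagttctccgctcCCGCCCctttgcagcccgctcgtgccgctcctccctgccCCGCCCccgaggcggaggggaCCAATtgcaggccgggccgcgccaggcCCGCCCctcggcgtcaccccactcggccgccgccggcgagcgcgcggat
The Sap30 window held 1 GC box, the Cebpb window 5, of which 2 overlap, and the Fkbp4 window 3 GC boxes and 1 CCAAT box. Of 32851 RefSeq windows of this length, 32.7% held a GC box and 33.8% a CCAAT box. Other motifs were searched on both strands in the same way and had no match in the 3 windows. The TATA box TATAAA occurred in 12.4% of all windows. The cAMP response element TGACGTCA occurred in 1.55% of them, and the AP-1 motif TGANTCA in 6.75%. The C/EBP motif TTGCNNAA occurred in 9.56%, and the heat shock element core TTCNNGAA in 7.17%. Only this arrangement of the heat shock element was searched, and the opposite order of its repeats was not. The lack of a match thus does not show that a window holds no heat shock element. The Fkbp4 window printed above does hold the opposite order, as gaaagttc. How often that order occurs in all windows was not computed, so its presence is no result by itself. The E-box CACGTG occurred in 6.02% of windows.

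Next to the called genes stood genes of small p that did not pass. Msrb1, a selenoprotein that repairs oxidised methionine, had 147.4 and 128.9 CPM in LPS_IFNg_TubB and 128.7 and 95.5 CPM in TubB (0.32 ± 0.08, edgeR adjusted p = 0.111). Tgm2, transglutaminase 2, had 239.4 and 194.8 CPM in LPS_IFNg_TubB and 197.9 and 169.2 CPM in TubB (0.24 ± 0.07, edgeR adjusted p = 0.447). In the other direction, Cenpa, the centromeric histone H3 variant, had 21.1 and 28.1 CPM in LPS_IFNg_TubB and 35.6 and 38.2 CPM in TubB (-0.57 ± 0.14, edgeR adjusted p = 0.0617). Rcc1, the exchange factor of the GTPase Ran, had 52.6 and 55.85 CPM in LPS_IFNg_TubB and 65.9 and 75.5 CPM in TubB (-0.39 ± 0.10, edgeR adjusted p = 0.106). Zbtb48, a telomere-binding zinc finger protein, had the largest uncalled difference of those named, with 4.82 and 6.94 CPM in LPS_IFNg_TubB and 11.6 and 12.6 CPM in TubB (-1.02 ± 0.28, edgeR adjusted p = 0.253).

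The difference in one pair said little about the difference in the other. Over the 8842 genes that averaged 3 log2 CPM or more, Pearson's r across genes between the pair 1 and pair 2 differences was -0.02, for pairs that share no library. The same sign occurred in both pairs for 5470 of the 11081 genes (49.4%), with 2733 higher in both (24.7%) and 2737 lower in both (24.7%). The SD of the log2 difference over the 8842 genes was 0.22 in pair 1 and 0.19 in pair 2, against 0.24 between the replicates of LPS_IFNg_TubB and 0.25 between those of TubB. In the libraries without the compound label, LPS_IFNg minus mock had SDs of 0.21 and 0.21 in its pairs. A difference past 0.5 on the log2 scale occurred in 4% of these genes in pair 1 and in 2.47% in pair 2.

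Only 17 of the 8842 genes passed 0.5 in the same direction in both pairs. All 17 lay between 3.01 and 4.12 log2 CPM, and none was called. Among them Id3, an inhibitor of basic helix-loop-helix factors, had a log2 fold change of 0.77, Map3k5, the stress kinase ASK1, -0.65, and Gstm1, a glutathione transferase, -0.60. These 3 were named after their values were seen.

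**Figure D2:**
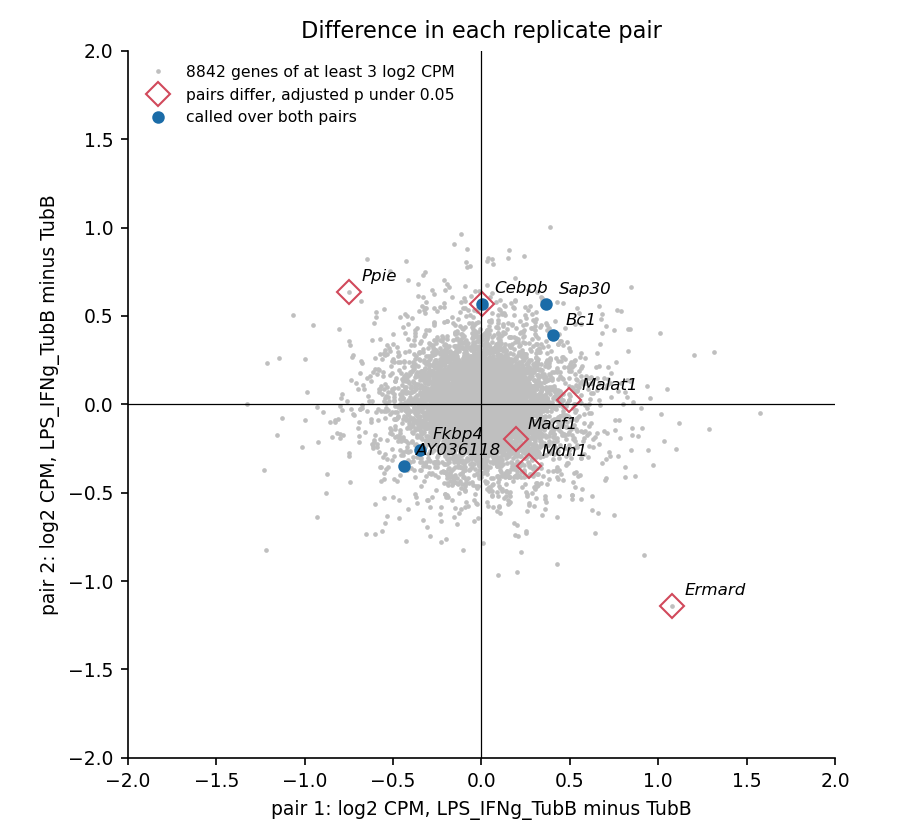
Log2 CPM difference (LPS_IFNg_TubB minus TubB) of each of 8842 genes in pair 1 (horizontal) and pair 2 (vertical). Blue points are the 5 called genes and red diamonds the 6 genes whose pairs differed by the test. The cloud has no slope (r of -0.02), Sap30 and Bc1 lie above 0 in both pairs, AY036118 and Fkbp4 below 0 in both, and Cebpb lies on the vertical axis.

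The test of pair 2 against pair 1, which rests on 1 residual degree of freedom, called 6 genes (0.0541%), with 769 at an unadjusted p under 0.05 (6.94%). Besides Cebpb these were Malat1, Mdn1, Macf1, Ppie and Ermard. Malat1, an abundant nuclear long non-coding RNA, had 1205 and 1032 CPM in LPS_IFNg_TubB and 856 and 1016 CPM in TubB, which is 0.49 in pair 1 and 0.02 in pair 2. The libraries of pair 1 were the highest and the lowest of the 4. Mdn1, an ATPase of ribosome assembly, differed by 0.27 in pair 1 and -0.35 in pair 2, and Macf1, a cytoskeletal linker, by 0.19 and -0.20 in the same order. Ppie, a spliceosomal cyclophilin, differed by -0.75 in pair 1 and 0.64 in pair 2. Ermard, a protein of the endoplasmic reticulum membrane, differed by 1.08 in pair 1 and -1.14 in pair 2. Neat1, the scaffold RNA of paraspeckles, named after its values were seen, had 433 and 417 CPM in LPS_IFNg_TubB and 340 and 418 CPM in TubB, so TubB replicate 1 was the lowest.

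Most genes could be bounded more tightly than they could be called. The bound of a gene is the larger fold, in either direction, at the ends of its 95% interval, taken per gene without correction for their number. The whole interval lay within 1.5-fold for 7698 genes (69.5%) and within 2-fold for 9384 (84.7%). For the other 1697 (15.3%) the interval reached past 2-fold. With intervals widened by the Bonferroni rule over all 11081 genes, 3925 (35.4%) lay within 1.5-fold and 7106 (64.1%) within 2-fold. Without the pairing, 7353 (66.4%) lay within 1.5-fold and 9263 (83.6%) within 2-fold. By DESeq2 with the pairing, 5607 of the 11081 genes lay within 1.5-fold. The intervals lean on a spread shared across genes, since the paired model left 2 residual degrees of freedom and all but 723 genes took their spread from the trend.

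The bound followed the level. Above 9 log2 CPM the median bound of 286 genes was 1.09-fold, and between 7 and 9 it was 1.12-fold over 1510 genes. Between 5 and 7 it was 1.22-fold over 3911 genes, and between 3 and 5 it was 1.44-fold over 3135. Between 1 and 3 it was 2.201-fold over 1686 genes, of which 35.5% were bounded within 2-fold. At or under 1 it was 4.34-fold over 553 genes, of which 0% were. The narrowest intervals among list members were those of Fth1 and Ftl1, the ferritin chains that store iron, and Ctsb, the lysosomal protease cathepsin B. Fth1 had 11410 and 11380 CPM in LPS_IFNg_TubB and 11740 and 10940 CPM in TubB, with an interval from -0.07 to 0.08, a bound of 1.06-fold. Ftl1 and Ctsb had bounds of 1.06-fold and 1.05-fold. The widest among list members of at least 3 log2 CPM were those of Cxcl9 (a CXCR3 ligand, -0.60 to 0.77), Phf11b (of the type I interferon-inducible list, -0.77 to 0.57) and P4ha2 (a collagen prolyl hydroxylase, -0.25 to 0.99).

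**Figure D3:**
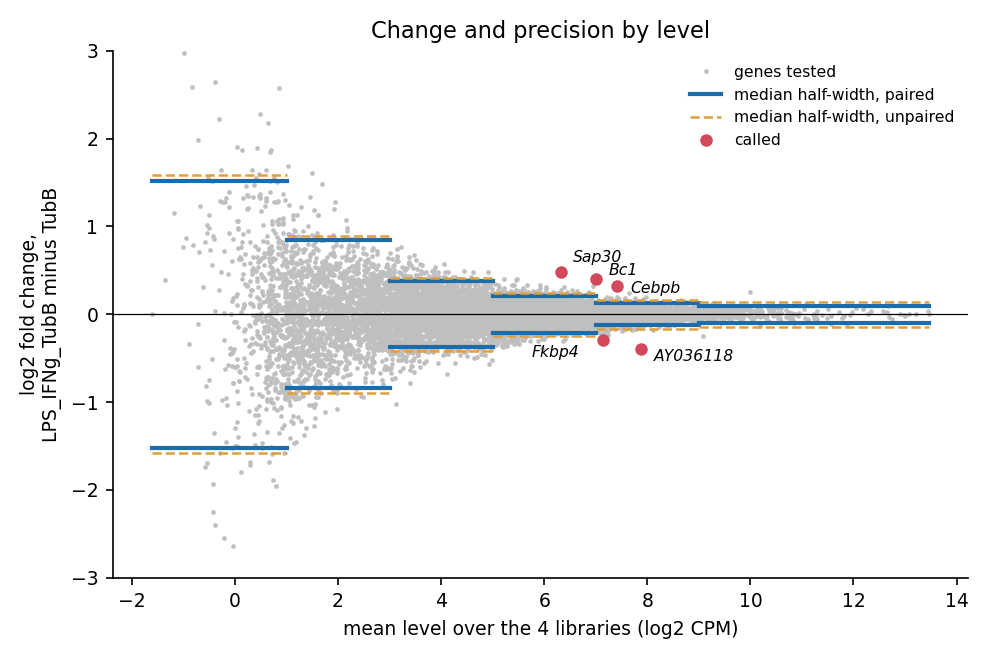
Log2 fold change of each tested gene (vertical) against its mean log2 CPM over the 4 libraries (horizontal), with 14 genes at or beyond 3 log2 units not drawn. Solid blue and dashed orange lines give the median distance from an estimate to the end of its 95% interval in each level bin, with and without the pairing. It is 0.84 (paired) and 0.89 (unpaired) between 1 and 3 log2 CPM and 0.13 and 0.17 between 7 and 9, and the 5 called genes (red) lie between 6.32 and 7.88.

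For the abundant activation markers other than Ccl2, the unpaired intervals were much wider than the paired ones. Nos2 differed by 0.09 in both pairs (0.09 ± 0.04, 95% interval 0.02 to 0.17, edgeR adjusted p = 0.974), a bound of 1.13-fold, and without the pairing the interval ran from -0.21 to 0.39. Ptgs2 differed by -0.11 in pair 1 and 0.11 in pair 2, with an interval from -0.09 to 0.09 and, without the pairing, from -0.80 to 0.77. Ccl2, a monocyte chemokine, had 4321 and 3838 CPM in LPS_IFNg_TubB and 4362 and 3671 CPM in TubB, with an interval from -0.06 to 0.11, or -0.14 to 0.18 without the pairing. Il6 had 69.1 and 44.1 CPM in LPS_IFNg_TubB and 67.2 and 38.6 CPM in TubB, with an interval from -0.16 to 0.39, or -0.73 to 0.96 without the pairing. In each of these genes replicate 1 exceeded replicate 2 in both groups.

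The less abundant markers Il1b and Cxcl10 were less well bounded. Il1b had 19.7 and 12.1 CPM in LPS_IFNg_TubB and 16.03 and 11.7 CPM in TubB, with an interval from -0.32 to 0.67. Cxcl10, an interferon-induced chemokine, had 20.7 and 13.4 CPM in LPS_IFNg_TubB and 14.5 and 12.9 CPM in TubB, with an interval from -0.21 to 0.75. The abundant Hmox1, haem oxygenase 1, had 1477 and 1511 CPM in LPS_IFNg_TubB and 1559 and 1628 CPM in TubB. It differed by -0.09 ± 0.05 (edgeR adjusted p = 0.992), a bound of 1.13-fold. Arg1 had 0 and 0 counts in LPS_IFNg_TubB and 0 and 5 in TubB, and Il10 and Tnf are listed at 0 in all 8 libraries, so no bound is given for these 3. Whether reads of Il10 or Tnf were lost in counting was not tested, so a listed 0 does not show that the gene was silent.

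**Figure D4:**
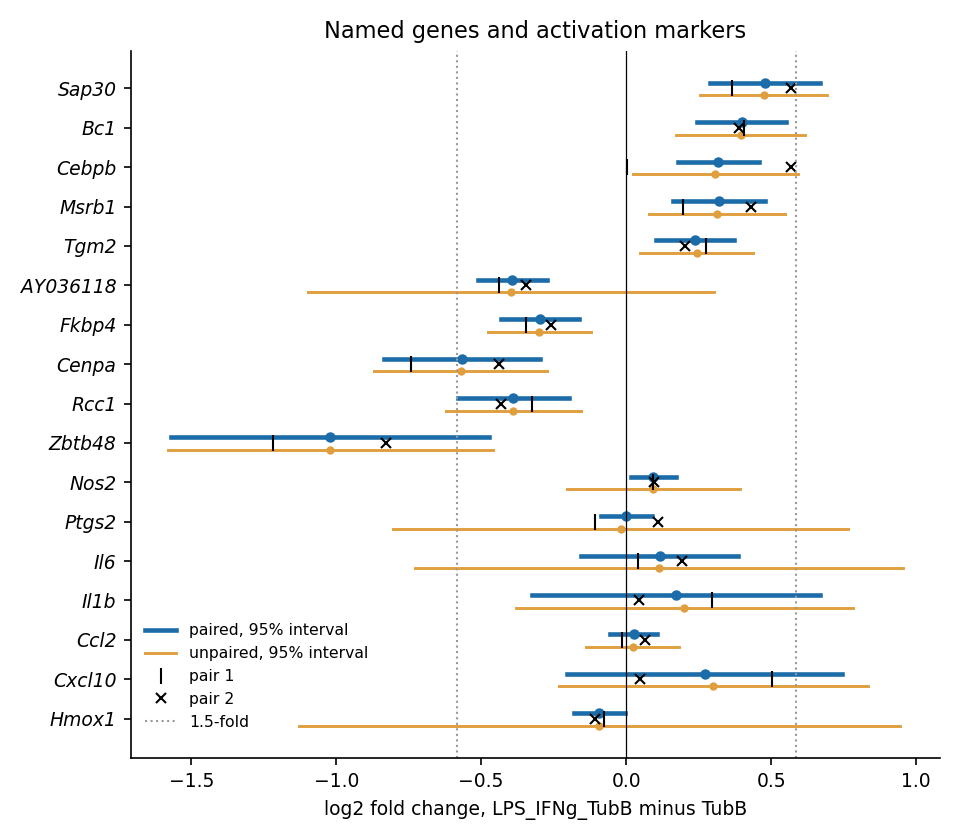
Log2 fold change (LPS_IFNg_TubB minus TubB) with 95% intervals for the 10 genes of smallest p by direction and 7 activation markers, paired in blue and unpaired in orange, with single pair values as bars (pair 1) and crosses (pair 2). Dotted lines mark 1.5-fold. The orange intervals of AY036118 (-1.10 to 0.30), Ptgs2 (-0.80 to 0.77) and Hmox1 (-1.13 to 0.94) are much wider than the blue ones.

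Pathways were described through 44 gene lists, of which 41 had a measured member and 38 had at least 3. The C/EBP family and the Sin3 and histone deacetylase complex each held 1 called gene, Cebpb and Sap30, and edgeR called no member of any other list. The median log2 fold change of all genes tested was -0.001. No list median lay further than 0.1 from it among lists of at least 3 measured members, and these medians carry no test. Limma-voom also called Nos2, at an adjusted p of 0.0463.

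Among ligands and their signalling, the 15 measured cytokines had a median of 0.005 and 0 at an unadjusted p under 0.05, with 9 bounded within 1.5-fold. Il15, which supports lymphocytes, had 11.5 and 11.1 CPM in LPS_IFNg_TubB and 9.004 and 7.16 CPM in TubB (0.50 ± 0.30). Lif, a cytokine of the interleukin 6 family, had 12.4 and 10.4 CPM in LPS_IFNg_TubB and 15.8 and 12.9 CPM in TubB (-0.33 ± 0.24). The 11 chemokines had a median of 0.04 and 0 at an unadjusted p under 0.05, with 8 within 1.5-fold. The 30 Toll-like receptor signalling genes had a median of 0.01 with 27 within 1.5-fold. Tab1, an adaptor of the kinase TAK1, differed by 1.58 in pair 1 and -0.05 in pair 2, with 5.71 CPM in TubB replicate 1 against at least 13.2 CPM in each of the other 3 libraries. The 23 JAK-STAT genes had a median of 0.05, with 20 within 1.5-fold and 0 at an unadjusted p under 0.05.

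The interferon-inducible lists had medians above 0 in pair 2 and close to 0 in pair 1. The 36 type I interferon-inducible genes had a median of 0.08, made of -0.02 in pair 1 and 0.20 in pair 2. Of them 15 (41.7%) were higher in both pairs against 24.7% of all genes. The pairs agreed in direction for only 47.2% of this list, against 49.4% of all genes. Of these 36, 4 were higher and 0 lower at an unadjusted p under 0.05, and 31 were bounded within 1.5-fold. Their summed level was 6186 and 4529 CPM in LPS_IFNg_TubB and 6247 and 4125 CPM in TubB, so replicate 1 exceeded replicate 2 in both groups by more than the labels differed. Oas2, an antiviral 2′-5′ oligoadenylate synthetase, had 110.9 and 78.2 CPM in LPS_IFNg_TubB and 93.8 and 59.7 CPM in TubB (0.32 ± 0.10, edgeR adjusted p = 0.81). Cmpk2, a mitochondrial nucleotide kinase, had 176.8 and 92.9 CPM in LPS_IFNg_TubB and 152.4 and 75.6 CPM in TubB (0.25 ± 0.09, edgeR adjusted p = 0.868). The 15 IFN-γ-inducible GTPases had a median of 0.09, with 0.03 in pair 1 and 0.15 in pair 2, and 14 were bounded within 1.5-fold. Gbp2b had 2432 and 2097 CPM in LPS_IFNg_TubB and 2385 and 1813 CPM in TubB, a bound of 1.154-fold, and Gbp5 had 722 and 584 CPM in LPS_IFNg_TubB and 672 and 527 CPM in TubB, a bound of 1.17-fold. Of 19 listed antigen presentation genes of class I only 8 were measured. Each of these 8 was within 1.5-fold, with B2m (β2-microglobulin) bounded at 1.12-fold.

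NF-κB targets and feedback genes had a median of 0.06 over 29 members, with 2 higher and 1 lower at an unadjusted p under 0.05 and 26 within 1.5-fold. Tnip1, which restrains NF-κB signalling, had 472 and 417 CPM in LPS_IFNg_TubB and 417 and 388 CPM in TubB (0.14 ± 0.05, edgeR adjusted p = 0.868). Cd40, a costimulatory receptor, had 368 and 299 CPM in LPS_IFNg_TubB and 367 and 245 CPM in TubB, which is 0.005 in pair 1 and 0.29 in pair 2. Socs1, the feedback inhibitor of JAK kinases, had 59.0 and 60.0 CPM in LPS_IFNg_TubB and 57.3 and 43.2 CPM in TubB (0.27 ± 0.14, edgeR adjusted p = 0.992). Macrophage identity and phagocytosis genes had a median of 0.06 over 22 members, and 13 (59.1%) were higher in both pairs, against 24.7% of all genes. Fcgr3, a low-affinity receptor for immunoglobulin G, had 164.6 and 155 CPM in LPS_IFNg_TubB and 148.2 and 131.9 CPM in TubB (0.20 ± 0.08, edgeR adjusted p = 0.962).

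The lists with medians below 0 in both pairs included those of amino acid supply, protein folding, mitosis and cholesterol synthesis. The 30 ATF4 targets and amino acid supply genes had a median of -0.07, with -0.05 in pair 1 and -0.11 in pair 2, and 17 (56.7%) were lower in both pairs against 24.7% of all genes, with 0 higher in both. At an unadjusted p under 0.05, 4 were lower and 0 higher, and 27 were bounded within 1.5-fold. Iars, isoleucyl-tRNA synthetase, had 129.5 and 155 CPM in LPS_IFNg_TubB and 152 and 172.8 CPM in TubB (-0.19 ± 0.07, edgeR adjusted p = 0.868). Slc7a1, a cationic amino acid transporter, had 133.1 and 142.1 CPM in LPS_IFNg_TubB and 135.9 and 170.8 CPM in TubB (-0.17 ± 0.07, edgeR adjusted p = 0.963). The 22 unfolded protein response genes had a median of -0.05 in each pair and over both, 10 (45.5%) were lower in both pairs, 6 were lower at an unadjusted p under 0.05 and all 22 were within 1.5-fold. Hspa5, the chaperone BiP of the endoplasmic reticulum, had 1099 and 1124 CPM in LPS_IFNg_TubB and 1150 and 1290 CPM in TubB (-0.14 ± 0.05, edgeR adjusted p = 0.849). Creld2, an endoplasmic reticulum stress-inducible protein, had 109.7 and 130.7 CPM in LPS_IFNg_TubB and 134.8 and 140.7 CPM in TubB (-0.19 ± 0.07, edgeR adjusted p = 0.868). The 16 heat shock chaperones had a median of -0.04 with 8 (50%) lower in both pairs, and all 16 were within 1.5-fold.

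Mitosis genes had a median of -0.06 over 31 members, with -0.06 in pair 1 and -0.14 in pair 2. Of these members 14 (45.2%) were lower in both pairs, against 24.7% of all genes, and 5 were lower at an unadjusted p under 0.05. Besides Cenpa, Birc5 (survivin) had 31.45 and 42.1 CPM in LPS_IFNg_TubB and 37.55 and 54.0 CPM in TubB (-0.32 ± 0.12, edgeR adjusted p = 0.868). The 36 DNA replication genes had a median of -0.06 in the model, with 0.00 in pair 1 and -0.04 in pair 2, and 35 were within 1.5-fold. Of the replicative helicase subunits, Mcm3 had 169.6 and 171.7 CPM in LPS_IFNg_TubB and 195.9 and 194.4 CPM in TubB, and Mcm6 had 82.4 and 105.1 CPM in LPS_IFNg_TubB and 98.6 and 121.4 CPM in TubB, both with an edgeR adjusted p of 0.861. The 24 cholesterol synthesis and uptake genes had a median of -0.06, with 0 higher and 7 (29.2%) lower in both pairs. That is near the 24.7% of all genes lower in both pairs. The same direction in both pairs occurred in 29.2% of the list, against 49.4% of all genes. Fdft1, squalene synthase, had 18.1 and 23.5 CPM in LPS_IFNg_TubB and 27.0 and 31.8 CPM in TubB (-0.49 ± 0.16, edgeR adjusted p = 0.775), and Cyp51, lanosterol demethylase, had 41.1 and 54.4 CPM in LPS_IFNg_TubB and 50.3 and 67.85 CPM in TubB (-0.31 ± 0.11, edgeR adjusted p = 0.868).

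Most housekeeping and metabolic genes were also bounded within 1.5-fold. Of 44 ribosomal protein genes 43 lay within 1.5-fold, with a median of 0.002. All 23 glycolysis genes (median 0.004), all 35 nuclear oxidative phosphorylation genes (median 0.03) and all 22 tricarboxylic acid cycle genes (median -0.04) did so too. Of 30 lysosomal genes 29 lay within 1.5-fold, with a median of 0.003. Pfkfb3, an activator of glycolysis, had 139.8 and 115.3 CPM in LPS_IFNg_TubB and 126.1 and 97.8 CPM in TubB (0.20 ± 0.09, edgeR adjusted p = 0.992).

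**Figure D5:**
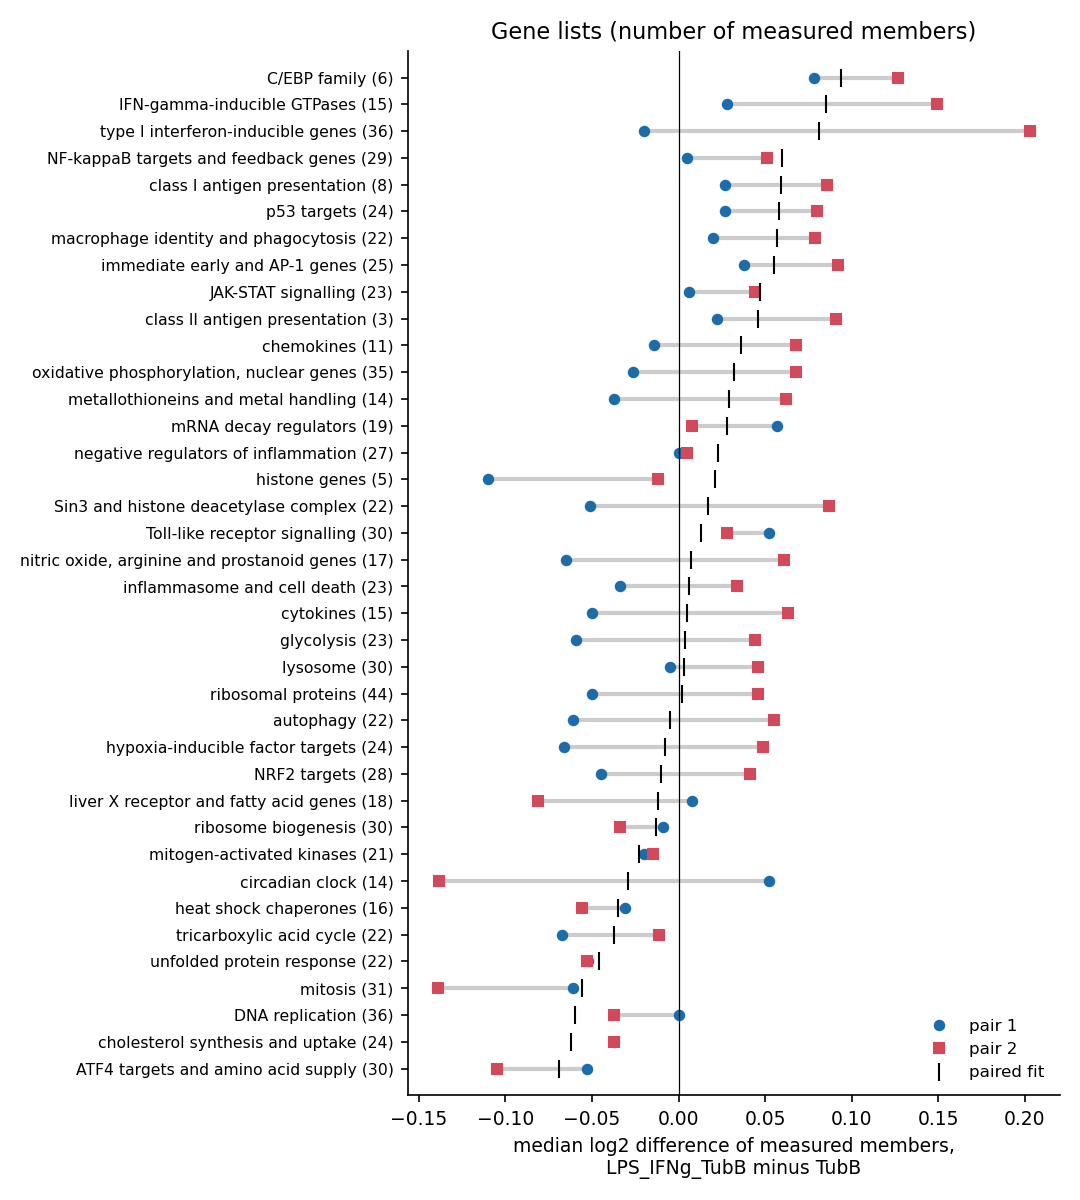
Median log2 difference (LPS_IFNg_TubB minus TubB) of the measured members of 38 gene lists, with pair 1 as blue circles, pair 2 as red squares and the paired model as black bars; numbers in brackets count measured members. Pair medians run from -0.14 to 0.20. The type I interferon list has -0.02 in pair 1 and 0.20 in pair 2, and the ATF4 and mitosis lists lie below 0 in both pairs.

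Pearson's r across the 8842 genes between the mean pair difference here and that of LPS_IFNg minus mock, which share no library, was 0.003. For LPS_IFNg minus mock, edgeR called 0 genes, with 537 at an unadjusted p under 0.05 (4.85%).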

How the data were processed

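Polyadenylated RNA of RAW264.7 cells was sequenced in 8 libraries with a kit that does not keep strand, per the labels' protocols. The authors deposited raw read counts per gene, made with featureCounts 2.0.1 on GRCm38.p6 RefSeq genes per the file headers, after alignment with STAR 2.7.0 per the submitters' processing notes. The header records no option for strand or multi-mapped reads, so reads of a gene and an antisense partner cannot be told apart. The authors also deposited regularised log2 values (rlog), used here as an alternative. Columns were assigned through the library number in each title, and 0 sample columns were left unassigned.

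From the counts, edgeR 4.0.16 in R 4.3.3 was used with TMM factors, filterByExpr by group (minimum count 10, minimum total 15) and robust quasi-likelihood estimation. The model held 4 blocks (compound label by replicate number) and a stimulus effect with and without the compound, 6 coefficients and 2 residual degrees of freedom over 8 libraries. Genes were called at a Benjamini-Hochberg adjusted p under 0.05 over all genes tested. Intervals are at 95% from the same model. CPM values use TMM-scaled library sizes, and log2 CPM a prior count of 2. The pairing by replicate number comes from how the comparison is defined, not from the labels. As a check, the replicate 2 minus 1 differences of LPS_IFNg_TubB and TubB had r = 0.279 across 8842 genes, and those of LPS_IFNg and mock r = 0.125, with 2 numbers only.

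Named genes were called genes of at least 3 log2 CPM with the same sign in both pairs, filled up to 5 per direction by smallest p, called list members or else the 2 of smallest p per list described, fixed activation markers, and the 3 narrowest and widest intervals among list members. The members and the 44 gene lists were chosen with earlier results of these data known. Alternatives were no pairing, a replicate block over all groups or within the compared libraries, RLE factors, other count filters, DESeq2 1.42.0, limma 3.58.1 with voom or on rlog values, a minimum fold of 1.2 and leaving out each library. Estimation without the robust option and the separate test of each pair were added after the data were seen. The code was tested on simulated counts.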

Additional observations from a re-analysis of the deposited data

Results flagged for a closer look

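AY036118 stood out because the stimulus effects with and without the compound label differed by a test of the difference itself. LPS_IFNg_TubB minus TubB was -0.39 ± 0.06 and LPS_IFNg minus mock was 0.23 ± 0.06 on the log2 scale (model SE, 2 pairs each). They differed by -0.625 (edgeR adjusted p = 2.77e-09). By itself, LPS_IFNg minus mock was not called for this gene (edgeR adjusted p = 0.527). Neither the difference of -0.625 nor LPS_IFNg_TubB minus TubB was called without the pairing. The edgeR unadjusted p of LPS_IFNg_TubB minus TubB was then 0.198. LPS_IFNg minus mock was 0.08 in pair 1 and 0.40 in pair 2. Without mock replicate 2 or LPS_IFNg replicate 2 the difference was -0.473 or -0.472 and was not called (edgeR adjusted p = 0.132 and 0.146), and over the alternatives, applied to this difference after seeing the data, it ranged from -0.792 to -0.42.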

How the results depend on the processing

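The calls depended on the pairing. With no replicate block 0 genes were called, 0 higher and 0 lower, and an additive replicate block over all groups, DESeq2 and a minimum fold of 1.2 also gave 0, 0 and 0. At an unadjusted p under 0.05 they gave 269, 290, 27 and 127 genes in that order. With the replicate block within the compared libraries 5 genes were called, of which 4 were among the 5 reported (Fkbp4 gave way to Malat1) and 1 was lower. With no count filter 3 were called, 1 of them lower. Limma-voom called 5 higher and 1 lower, adding Msrb1 and Nos2 and losing Fkbp4. Limma on rlog values called 5, with Cenpa in place of Cebpb. Without the robust option, chosen after seeing the data, 8 were called, 4 of them lower, with Cenpa, Lars2 and Malat1 added. RLE factors and a filter of 1 CPM in 2 libraries called the same 5 genes.

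Leaving out 1 library gave 4 to 5 calls, of which 1 was lower each time. Without either library of pair 2 only AY036118 of the 5 was still called, with Malat1, Neat1 and Tab1 beside it. Without either of pair 1 AY036118, Cebpb and Sap30 were, with Gbp2b. With 1 library left out Cebpb ranged from -0.002 (without TubB replicate 2, a reversed sign) to 0.572. Over 19 alternative settings AY036118 was called in 15, Sap30 in 13, Bc1 in 11, Cebpb in 10 and Fkbp4 in 4. Of the values of 17 named genes, 269 kept direction and side of the threshold, 41 lost the call, 4 gained it and 9 changed sign, of which 8 were of uncalled genes. Ptgs2, at 0.001, was -0.019 with no replicate block, -0.006 with the additive block, -0.006 with no count filter, -0.002 on rlog values and -0.11 to 0.11 with 1 library left out. Ccl2, at 0.026, was -0.017 to 0.064 with 1 library left out. The difference between the stimulus effects gave 0 calls with no replicate block, with the additive block and with DESeq2, 2 with limma-voom, 2 without the robust option and 0 to 3 with 1 library left out. LPS_IFNg minus mock gave 0 to 1 with 1 library left out. The count of genes bounded within 1.5-fold stayed within 1.5 times under each setting that gave one, and was not computed for the minimum fold. It still depended on the method. Of 11081 genes it was 7698 in the main model, 5607 with DESeq2 and 11043 on rlog values. Of the list medians 184 moved by less than the spread between the 2 pair medians of their list and 44 by more. That spread differs between lists, so the tally does not measure how stable a median is. The cholesterol median, -0.062 both in the main model and with RLE factors, counted as moved, since its pair medians were both -0.037. The type I interferon median, 0.081 in the main model, counted as not moved in any setting. The type I interferon median was 0.204 without a library of pair 1 and -0.024 or -0.02 without one of pair 2. The cause of these changes was not tested. With 2 pairs and 4767894 to 8413834 counts a library, genes under 3 log2 CPM were poorly bounded.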
